A study of Mus musculus with 24 samples.

Results

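Poly(A) RNA was sequenced from adipocytes cultured from the stromal vascular fraction (SVF, the non-adipocyte cells of fat, which include adipocyte precursors) of mouse inguinal white adipose tissue (iWAT, a subcutaneous depot). The cultures described here, called combined-loss below, joined a Senp2 knockout given by the labels with a Cebpb knockdown. They came from mice labelled Senp2flox/flox ; Adipoq Cre (Senp2-aKO, here aKO) and received siRNA against C/EBPbeta, the product of Cebpb (siCEBPb). They were compared with cultures of Senp2flox/flox mice (Cont), with no Cre in the label, treated with siNS (the labels leave that abbreviation open). Each group held 3 libraries, so the comparison used 6 of the 24 libraries of the series, chosen by the depot, genotype and siRNA in the labels. The other iWAT groups, Cont siCEBPb and aKO siNS with 3 libraries each, were used to place each gene, and the matching 12 libraries from epididymal fat (eWAT, a visceral depot) were set beside them. All cultures shared the floxed Senp2 allele, an induction of 2 days with IBMX, insulin and dexamethasone, and 5 further days with insulin. Age and sex are not used here. The labels do not say whether the libraries of a group came from separate mice or cultures, so the p-values below measure the spread between these libraries, which may be technical.

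C/EBPbeta is a basic leucine zipper transcription factor that is induced early in adipocyte differentiation and activates Cebpa and Pparg, the regulators of the mature fat cell. It also drives acute phase and inflammatory genes in many cell types. SENP2 is a protease that removes SUMO, a small protein tag, from its targets, and C/EBPbeta is one of the proteins known to carry SUMO. The series title states that SENP2 holds back browning of white fat through this route. Cre under the Adipoq promoter acts in cells that express the adipocyte hormone adiponectin, so undifferentiated cells of these cultures are outside its reach.

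The question was which genes that differ between knockout and control cultures are at the control level once Cebpb is also knocked down, and which stay apart. A library held 8435494 to 15388744 gene counts in 23 of the 24 cases and 603585 in iWAT aKO siNS replicate 2, in which 93.3% of the listed reads were not aligned. A single count was worth about 1.98 CPM (counts scaled to library size) in that library, so its value for a low gene is coarse. Highly expressed genes differed there too. Its 46 ribosomal protein genes summed to 6340 CPM and its 29 collagen genes to 101000. In aKO siNS replicates 1 and 3 these sums were 19900 and 18600, and 57500 and 57900. Adipocyte and lipid storage genes, at 5950, lay between the 5680 and 6460 of those libraries. The genotype comparison and the classes below include the shallow library. The 6 libraries of the combined comparison held 8435494 to 14025668 counts, and that shallow library is not among them. Levels are given as CPM on effective library sizes, in the order of replicates 1 to 3, and cannot be compared between genes because CPM is not divided by gene length. Differences are log2 fold changes with their standard error (SE) and adjusted p from edgeR's quasi-likelihood test with Benjamini-Hochberg adjustment over 14785 genes, and a gene was called at an adjusted p under 0.05.

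Cebpb itself (ENSMUSG00000056501, GRCm38 chr2:167688915-167690418) was at 145, 110 and 118 CPM in Cont siNS, 114, 103 and 127 in aKO siNS, and 12.7, 19.2 and 23.5 in aKO siCEBPb. The combined-loss libraries were all below every library with siNS, whereas the 2 genotypes with siNS overlapped. The combined difference was -2.76 (SE 0.18, adjusted p = 1.26e-10), a 6.78-fold lower level, against -1.79 (SE 0.17) for the knockdown in Cont cultures, where Cebpb stood at 36.7, 37.6 and 33.7 CPM. The level after knockdown was lower in aKO than in Cont cultures by a difference of -0.97 (SE 0.19, adjusted p = 0.00155), while the test of unequal knockdown missed the threshold (adjusted p = 0.0522). Senp2 (ENSMUSG00000022855, chr16:22009484-22049269) was at 55.5, 51.3 and 46.2 CPM in Cont siNS and at 53.7, 52.9 and 52.8 in aKO siCEBPb, a difference of 0.05 (SE 0.07, adjusted p = 0.62). The labels do not give the deleted exons, and cells that do not express Adipoq keep the gene, so a count over the whole gene does not check the knockout.

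The combined comparison called 5418 of 14785 genes (36.6%), with 2528 higher (17.1%) and 2890 lower (19.5%) in aKO siCEBPb. The libraries of the 2 groups did not overlap for 7420 genes (50.2%), 24.9% higher and 25.3% lower. The genotype comparison (aKO siNS against Cont siNS) called 2243 genes (15.2%), with 1082 higher (7.32%) and 1161 lower (7.85%), and 1436 without aKO siNS replicate 3. The knockdown in Cont cultures called 3597 genes (24.3%), 10.3% higher and 14% lower, and the knockdown in aKO cultures 4624 (31.3%). The 2 genotypes compared under knockdown differed in 1483 genes (10.0%; 3.52% higher and 6.51% lower in aKO), 942 without aKO siCEBPb replicate 1. Without the shallow library the combined and genotype comparisons called 6186 and 2752 genes.

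Each of the 2243 genotype genes was then placed by its combined difference. The combined difference is the genotype difference plus the knockdown difference in aKO cultures, so these comparisons share their Cont siNS and aKO siNS libraries, and the following counts are descriptions. A gene "returned" if the knockdown in aKO cultures moved it back towards control and the combined comparison did not call it. It went "part way" if it was moved back but still called on the same side, and "past control" if it was moved back and called on the opposite side. Of the rest, a gene "stayed apart" if the combined comparison called it on the same side and the knockdown in aKO cultures was not called, and went "further apart" if the knockdown was called away from control.

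Of the 2243 genes, 500 (22.3%) returned, 73 (3.25%) went part way, 253 (11.3%) went past control, 783 (34.9%) stayed apart and 441 (19.7%) went further apart, and 193 (8.6%) were undecided, as neither the combined comparison nor the move back was called. As shares of all 14785 tested genes these classes held 3.38%, 0.494%, 1.71%, 5.3%, 2.98% and 1.31%. More of the returned genes had been higher in the knockout (318) than lower (182), and the further apart genes were mostly lower (338 against 103). Returning is a p that missed the threshold, so the interval of the combined difference was read as well: for 387 of the 500 the 95% interval lay within 1.5-fold of control on either side, and for 113 it was wider. Next to the threshold, Cntn1 and Trabd2b were counted as returned at adjusted p = 0.0506 and 0.0507, and Il6ra and Reck were not, at 0.0494 and 0.0498. Cntn1 still had a combined difference of 2.65, so a place among the returned genes does not by itself mean a level near control. The counts moved with single libraries. Without aKO siNS replicate 3 the returned genes were 333, those past control 148, those further apart 214, those part way 47 and the undecided 105. Without aKO siNS replicate 1, 273 went further apart and 47 part way. Past control fell to 153 and 160 genes without Cont siNS replicates 1 and 3, part way to 48 without aKO siCEBPb replicate 3, and the undecided rose to 345 and 306 without aKO siCEBPb replicates 1 and 2. Without the shallow library they were 599 returned, 101 part way, 339 past control, 946 stayed apart and 560 further apart. Genes named below for their class were picked for a wide difference between libraries that did not overlap. The ranking used the combined comparison, or the genotype comparison for returned genes. Their width and lack of overlap in it follow from that choice.

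**Figure D1:**
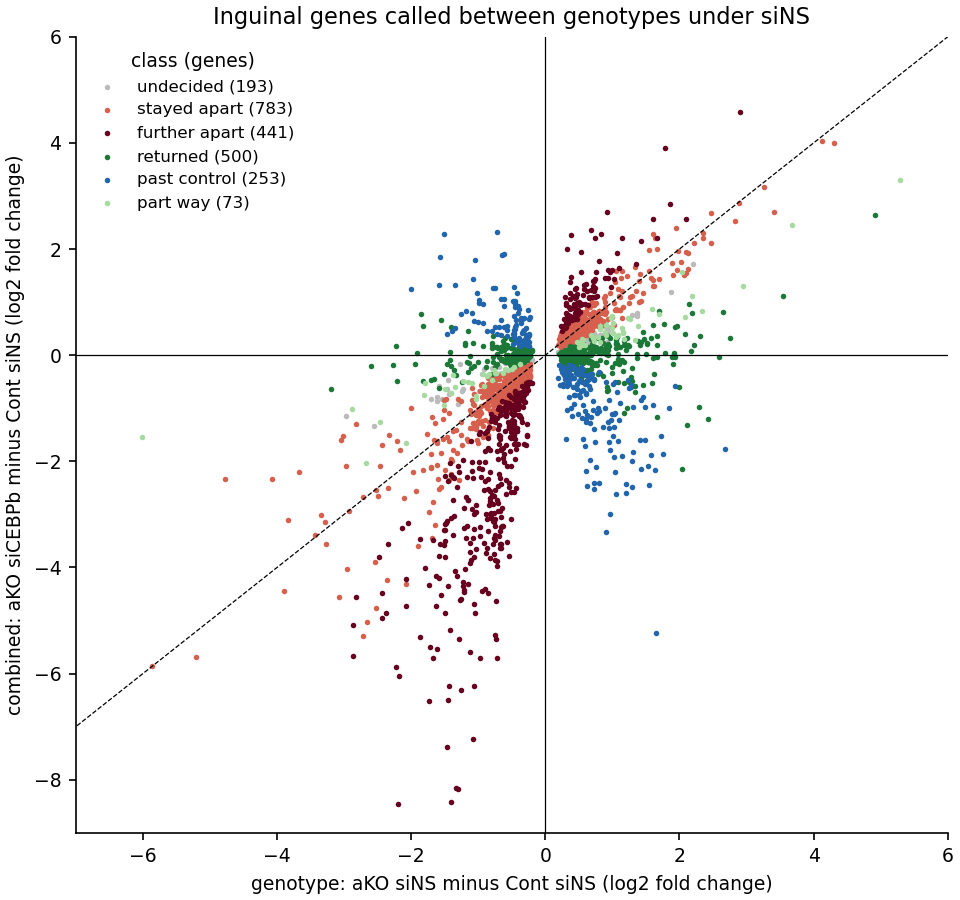
Each point is 1 of the 2243 genes called between genotypes in iWAT. The x axis is the log2 fold change of aKO siNS over Cont siNS and the y axis that of aKO siCEBPb over Cont siNS, both from edgeR; colours give the class and the dashed line marks equal differences. Of the 500 returned genes, 387 have a 95% interval within 1.5-fold of 0 on the y axis, while others such as Cntn1, at 2.65, are far from it, and the 783 that stayed apart lie along the dashed line. Both axes share the Cont siNS libraries.

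Genes were also chosen by the eWAT genotype comparison, which uses no iWAT library in its group means but shares the filter and the dispersion estimate of the fit. The 1405 genes (9.5%) called higher in aKO siNS than in Cont siNS in eWAT cultures had a median log2 difference of 0.423 between the iWAT genotypes and of 0.175 in the iWAT combined comparison. For the 1608 genes (10.9%) called lower in eWAT the medians were -0.463 and -0.462. Genes that were high in the knockout therefore had a smaller combined median, and genes that were low had nearly the same one; the difference between the 2 sets was not tested. In the combined comparison 38.3% of the first set were called higher and 58.5% of the other set lower. Between the knockdown groups, which share no library with the iWAT genotype comparison, the medians were 0.118 and -0.197. For the same sets the knockdown in Cont cultures gave medians of 0.0461 and -0.223. Without the shallow library the 2 sets moved from 0.427 to 0.162 and from -0.471 to -0.475, and without aKO siCEBPb replicate 1 from 0.425 to 0.196 and from -0.464 to -0.484. A test of the difference between depots in the combined comparison called 0 genes in edgeR, with 390 at an unadjusted p under 0.05, and no other tool was run for it.

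Among the genes that returned was Ppargc1a (ENSMUSG00000029167, chr5:51454250-51567726), the coactivator that drives mitochondrial and thermogenic genes in brown and beige fat. It was at 0.411, 0.693 and 0.241 CPM in Cont siNS, 2.93, 1.98 and 2.97 in aKO siNS, and 0.689, 1.13 and 0.589 in aKO siCEBPb. The aKO siNS libraries were all above the others, and the combined-loss group overlapped the control. The genotype difference was 2.65 (SE 0.34, adjusted p = 2.35e-06) and the combined difference 0.82 (SE 0.40, adjusted p = 0.134). The 95% interval of the combined difference ran from -0.01 to 1.65. At 14 to 74 counts per group this gene was close to the limit of what these depths resolve. Ucp1, the uncoupling protein of brown and beige fat, did not enter the tests: it was at 0 in the Cont siNS, Cont siCEBPb and aKO siNS libraries and had a single count in 1 aKO siCEBPb library.

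Clec3b, which encodes the plasminogen-binding protein tetranectin, was at 2.63, 2.77 and 0.962 CPM in Cont siNS, 13.7, 11.9 and 16.4 in aKO siNS, and 1.68, 3.31 and 3.28 in aKO siCEBPb. All aKO siNS libraries were above the rest, and the combined-loss libraries overlapped the control. The genotype difference of 2.75 (SE 0.30) became 0.32 (SE 0.37, adjusted p = 0.554). Ntrk2, the receptor of the growth factor BDNF, rose from 6.5, 6.73 and 5.17 CPM to 29.4, 31.6 and 27.8 in aKO siNS and was at 4.29, 9.3 and 7.66 in aKO siCEBPb. Gldc, of the mitochondrial glycine cleavage system, went from 4.36, 3.96 and 4.57 to 21.6, 13.8 and 17.8 and back to 3.9, 4.65 and 5.14. Both had groups that overlapped with control only after the knockdown. Their combined differences were 0.20 (SE 0.33) for Ntrk2 and 0.09 (SE 0.20) for Gldc, and the interval of Gldc, -0.32 to 0.49, lay within the 1.5-fold bound. Egfl6, a secreted EGF-like matrix protein, was at 7.57, 7.33 and 7.46 CPM in Cont siNS, 25.8, 35.6 and 29.8 in aKO siNS, and 4.59, 7.68 and 11 in aKO siCEBPb, with a combined difference of 0.05 (SE 0.24).

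For these 5 genes the knockdown did not pass the threshold in Cont cultures, with differences between -0.52 for Gldc and 0.57 for Clec3b. The test of unequal knockdown between genotypes called all 5, from -1.57 for Gldc (adjusted p = 0.00092) to -3.0 for Clec3b (adjusted p = 0.000366). Apart from Ppargc1a, these genes were picked for a wide genotype difference and a called move back. The interaction uses the same aKO siNS and Cont siNS libraries, so its sign and call for them are largely set by that choice. Over all 14785 genes this interaction test called 519 (3.51%). The total fell to 332 without Cont siNS replicate 1, 344 without aKO siNS replicate 1, 304 without aKO siNS replicate 3, 291 without aKO siCEBPb replicate 1 and 320 without Cont siCEBPb replicate 1, and rose to 939 without the shallow library.

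Pparg, the master regulator of adipocytes, was at 20, 29.6 and 26.7 CPM in Cont siNS, 36.1, 17.8 and 44.3 in aKO siNS, and 22.1, 27.1 and 27.9 in aKO siCEBPb. The shallow library lay below every control library and the other aKO siNS libraries lay above. The genotype difference of 0.63 (SE 0.16, adjusted p = 0.00876) became 0.03 (SE 0.16, adjusted p = 0.92). The genotype call of Pparg was lost in a fit of its 2 groups alone, without Cont siNS replicate 1 and without aKO siNS replicate 3 (adjusted p = 0.0727 to 0.18), and its knockdown call in aKO cultures without that last library (0.126). Fzd4, a Wnt receptor, went from 78.9, 83 and 78.7 CPM to 157, 146 and 151 and then to 75.7, 106 and 98.0, which overlapped control, with a combined difference of 0.22 (SE 0.10, adjusted p = 0.108). That gene passed the threshold in the combined comparison with no filter on low counts, with limma voom and without aKO siCEBPb replicate 1.

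Fewer genes returned from below. Ptgs1, the constitutive cyclooxygenase, was at 25.2, 24.5 and 26.9 CPM in Cont siNS, 9.81, 7.91 and 10.2 in aKO siNS, and 25.1, 17.8 and 20.5 in aKO siCEBPb. Cadm4, a cell adhesion molecule, was at 5.35, 6.04 and 6.62 CPM, then 0.774, 0.0 and 1.67, and then 5.36, 4.72 and 5.56. In both the aKO siNS libraries were the lowest and the combined-loss group overlapped the control. Their genotype differences of -1.36 (SE 0.16) and -2.27 (SE 0.25) became -0.27 (SE 0.13, adjusted p = 0.108) and -0.19 (SE 0.17, adjusted p = 0.402). Ptgs1 was called lower in the combined comparison with limma voom and without aKO siCEBPb replicate 1.

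The 73 genes that went part way included several with the widest genotype differences. Comp, a matrix protein of tendon and cartilage, was at 5.26, 7.23 and 5.65 CPM in Cont siNS, 43.9, 63.3 and 47.2 in aKO siNS, and 11.9, 16.5 and 16.5 in aKO siCEBPb. No groups overlapped and the combined-loss libraries lay between the others. The genotype difference of 2.95 (SE 0.18) became 1.31 (SE 0.19, adjusted p = 3.36e-06). Clec14a, a membrane protein known from endothelium, moved from 2.19 (SE 0.20) to 1.12 (SE 0.20), and the growth factor receptor gene Fgfr2 from 1.69 (SE 0.13) to 0.78 (SE 0.13). Apod, a lipid-binding apolipoprotein, kept most of its difference, with 2.03 (SE 0.14) between genotypes and 1.57 (SE 0.14) after the knockdown. The move back of Apod was not called by DESeq2, in its 2 groups alone or without aKO siNS replicate 1 (adjusted p = 0.0636 to 0.106), which would place it among genes that stayed apart. From below, Des, the intermediate filament of muscle cells, was at 18.5, 19.9 and 17.1 CPM in Cont siNS, 4.47, 1.98 and 2.43 in aKO siNS, and 7.65, 7.26 and 8.34 in aKO siCEBPb. It too lay between the other groups without overlap, at -1.26 (SE 0.14, adjusted p = 3.97e-08).

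Past control from above went genes that the knockdown took below the level of control cultures. Cebpa, which maintains the adipocyte programme and is activated by C/EBPbeta, was at 83.8, 97.1 and 87.1 CPM in Cont siNS, 135, 105 and 167 in aKO siNS, and 31.2, 51.7 and 48.1 in aKO siCEBPb. The aKO siNS libraries were all above control and the combined-loss libraries all below. The genotype difference of 0.71 (SE 0.19, adjusted p = 0.0144) became -1.03 (SE 0.19, adjusted p = 0.000217), close to the knockdown in Cont cultures of -0.92 (SE 0.19). The genotype call of Cebpa was lost in a fit of its 2 groups alone, without Cont siNS replicate 1 and without aKO siNS replicate 3 (adjusted p = 0.0623 to 0.163). Agt, the angiotensinogen secreted by fat cells, was at 25.4, 34.3 and 25.5 CPM in Cont siNS and 3.21, 5.29 and 6.4 in aKO siCEBPb, and went from 0.72 (SE 0.17), a call lost without aKO siNS replicate 3, to -2.52 (SE 0.20). Ppargc1b, a relative of Ppargc1a that also promotes mitochondrial genes, was at 3.78, 3.66 and 3.13 CPM in Cont siNS, 5.33, 9.89 and 5.7 in aKO siNS, and 0.459, 1.27 and 0.926 in aKO siCEBPb. Ppargc1b thus lay below control where Ppargc1a did not, at -1.98 (SE 0.26, adjusted p = 5.1e-07), but its genotype call was lost in 7 of the alternatives (adjusted p = 0.0514 to 0.118), among them DESeq2, iWAT libraries alone and the loss of Cont siNS replicate 2 or 3 or aKO siNS replicate 1 or 3. Cyp2e1 and Aox3, which encode oxidising enzymes, were at 0.0765 to 0.758 and 0.153 to 0.674 CPM in aKO siCEBPb against 2.22 to 4.65 and 1.88 to 2.17 in Cont siNS. The knockdown in Cont cultures gave differences of 0.00 (SE 0.40) for Cyp2e1 and -0.69 (SE 0.32) for Aox3, neither called, and the interaction called both (adjusted p = 0.00214 and 0.000282). The genotype difference of Cyp2e1, 1.2 (SE 0.38, adjusted p = 0.0364), was lost with DESeq2, with its 2 groups alone and without Cont siNS replicate 1 or 3 or aKO siNS replicate 3 (adjusted p = 0.074 to 0.3).

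Past control from below went Ptgs2, the inducible cyclooxygenase. It was at 19.3, 21.4 and 16.5 CPM in Cont siNS, 7.23, 5.93 and 7.99 in aKO siNS, and 70.2, 38.2 and 36.5 in aKO siCEBPb. No groups overlapped: aKO siNS was the lowest and aKO siCEBPb the highest, with replicate 1 above the other 2. The genotype difference was -1.34 (SE 0.41, adjusted p = 0.0343) and the combined difference 1.33 (SE 0.29, adjusted p = 0.00126). The genotype call of Ptgs2 was lost without Cont siNS replicate 1 or 2 or aKO siNS replicate 1 or 3 (adjusted p = 0.0774 to 0.135). In Cont cultures the knockdown gave 0.24 (SE 0.31), which was not called. Ankrd1, a target of mechanical and growth signals in muscle and stromal cells, was at 7.9, 7.52 and 8.54 CPM in Cont siNS, 2.75, 0.0 and 2.66 in aKO siNS, and 26.1, 14.9 and 18.6 in aKO siCEBPb. Nrg1, a ligand of ErbB receptors, went from 11.8, 11.5 and 11.8 CPM to 7.66, 7.91 and 6.62 and then to 56.4, 62.9 and 56.6, 5.01-fold above control. Both moved from below every control library to above every one, though the genotype call of Nrg1 was lost without aKO siNS replicate 3. Fgf21, a hormone of fat and liver that is also a target of ATF4, was at 1.48, 0.99 and 0.842 CPM in Cont siNS, 0.344, 0.0 and 0.228 in aKO siNS, and 2.83, 3.03 and 2.27 in aKO siCEBPb, a combined difference of 1.25 (SE 0.28, adjusted p = 0.000693) on 7 to 107 counts per group. Its genotype call was lost without Cont siNS replicate 1 or aKO siNS replicate 3. Cont siCEBPb cultures held 2.76, 4.98 and 4.98 CPM of Fgf21, and the aKO siCEBPb level was lower than that by -0.66 (SE 0.21, adjusted p = 0.0404).

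The genes that stayed apart from Cont siNS were the largest class. A place in that class does not show a genotype difference under the same siRNA. Of all 2243 genotype genes, 637 were called the same way between the knockdown groups and 48 the opposite way. Those groups share no library with the genotype comparison, and over all genes their comparison called 10.0%. Wt1 (ENSMUSG00000016458, chr2:105126529-105173616), a transcription factor of mesothelial cells and visceral fat precursors, was at 14.3, 14.7 and 14.2 CPM in Cont siNS, 1.46, 1.98 and 1.44 in aKO siNS, and 1.38, 1.41 and 2.1 in aKO siCEBPb. Both knockout groups were low and overlapped each other. Cont siCEBPb cultures held 14.5, 15 and 14.4 CPM, level with Cont siNS. The combined difference was -3.15 (SE 0.15, adjusted p = 4.9e-15), an 8.88-fold lower level, and the knockdown in aKO cultures gave 0.14 (SE 0.26). Tcf21, another transcription factor of white fat precursors, was at 4.03, 4.26 and 3.49 CPM in Cont siNS, 0.602, 0.0 and 0.608 in aKO siNS, and 0.689, 0.423 and 0.758 in aKO siCEBPb. Adcyap1r1, the receptor of the neuropeptide PACAP, was at 90.1, 95.4 and 121 CPM, then 18.2, 23.7 and 16.7, and then 21.5, 14.5 and 16.4. In each the aKO groups were below every Cont siNS library whichever siRNA was used. For Adcyap1r1 the interaction was called, with a knockdown effect in aKO minus that in Cont of 0.93 (log2). Its response to siCEBPb thus differed between genotypes. Omd, a keratan sulfate proteoglycan of bone and tendon, stayed high at 13.2, 20.4 and 21.1 CPM against 4.85, 6.14 and 5.41 in Cont siNS, a difference of 1.75 (SE 0.27). Scg2, a secretory granule protein, stayed high at 2.12 (SE 0.27), but the knockdown raised it in Cont cultures too, by 1.64 (SE 0.28), and the interaction called it (adjusted p = 0.00305).

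Further apart, on the low side, were 338 genes, among them 8 of the 21 tested leukocyte genes and 9 of the 30 tested acute phase genes (2.29% of all tested genes). F13a1, a coagulation factor subunit made by macrophages, was at 40.0, 44.3 and 33.7 CPM in Cont siNS, 8.35, 11.9 and 8.59 in aKO siNS, and 0.0765, 0.141 and 0.0842 in aKO siCEBPb, on 4 counts in all in the last group. Ccl6, a myeloid chemokine, went from 54.5, 48.2 and 62.7 CPM to 23.0, 3.96 and 19.3 and then to 0.536, 0.705 and 0.926. Both fell with genotype and fell again with the knockdown, with no overlap between the 3 groups. Their combined differences were -8.46 (SE 0.26) and -6.24 (SE 0.23). Mki67, a marker of cycling cells, was at 252, 244 and 219 CPM in Cont siNS and 112, 102 and 99.3 in aKO siCEBPb, and Slc16a3, the lactate exporter, at 246, 261 and 264 against 51.2, 55.2 and 50.3. Their combined differences were -1.19 (SE 0.08) and -2.30 (SE 0.08), against -0.80 (SE 0.08) and -1.38 (SE 0.08) between genotypes. For Mki67 the knockdown in aKO was not called in a fit of its 2 groups alone.

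Further apart on the high side were 103 genes. Ptn, the growth factor pleiotrophin, was at 0.822, 0.495 and 0.722 CPM in Cont siNS, 6.97, 11.9 and 3.19 in aKO siNS, and 11, 18.0 and 21.5 in aKO siCEBPb. Col8a2, a short-chain collagen, was at 7.4, 5.54 and 4.57 CPM, then 21.0, 11.9 and 21.1, and then 81.4, 98.3 and 88.1. All combined-loss libraries were above all control libraries in both, 24.1-fold for Ptn and 14.9-fold for Col8a2. Gsta4, which detoxifies lipid aldehydes, was 7.16-fold higher (2.84, SE 0.24). The genotype call of Ptn was lost without aKO siNS replicate 1. The knockdown in Cont cultures also raised all 3, by 3.52 (SE 0.58), 3.42 (SE 0.15) and 1.57 (SE 0.27).

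A further 3868 genes were called in the combined comparison but not between genotypes with siNS, 1931 higher and 1937 lower. The combined comparison holds the knockdown as well as the genotype, so such a call does not show that both changes are needed, and levels in Cont siCEBPb cultures are given beside it. Ptprz1, a receptor phosphatase that binds pleiotrophin, was at 1.73, 0.594 and 0.842 CPM in Cont siNS, 1.81, 1.98 and 1.83 in aKO siNS, and 24.7, 20.5 and 20.2 in aKO siCEBPb. Cont siCEBPb cultures held 7.7, 9.29 and 8.35 CPM, between the 2. The combined difference was 4.29 (SE 0.25) and that between the knockdown groups 1.36 (SE 0.16, adjusted p = 1.53e-06). Tnmd, a tendon and adipocyte membrane protein, was at 1.56, 2.67 and 1.44 CPM in Cont siNS and 9.03, 11 and 8.84 in aKO siCEBPb, a difference of 2.34 (SE 0.24). Cont siCEBPb libraries, at 9.41, 8.62 and 12.4 CPM, overlapped the combined-loss libraries. Cebpd, a relative of Cebpb, was lower by a small margin, -0.31 (SE 0.10, adjusted p = 0.0193), and that call was lost when a fold over 1.2 was required and without Cont siNS replicate 1 or 3 or aKO siCEBPb replicate 1 or 2 (adjusted p = 0.0605 to 0.388).

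**Figure D2:**
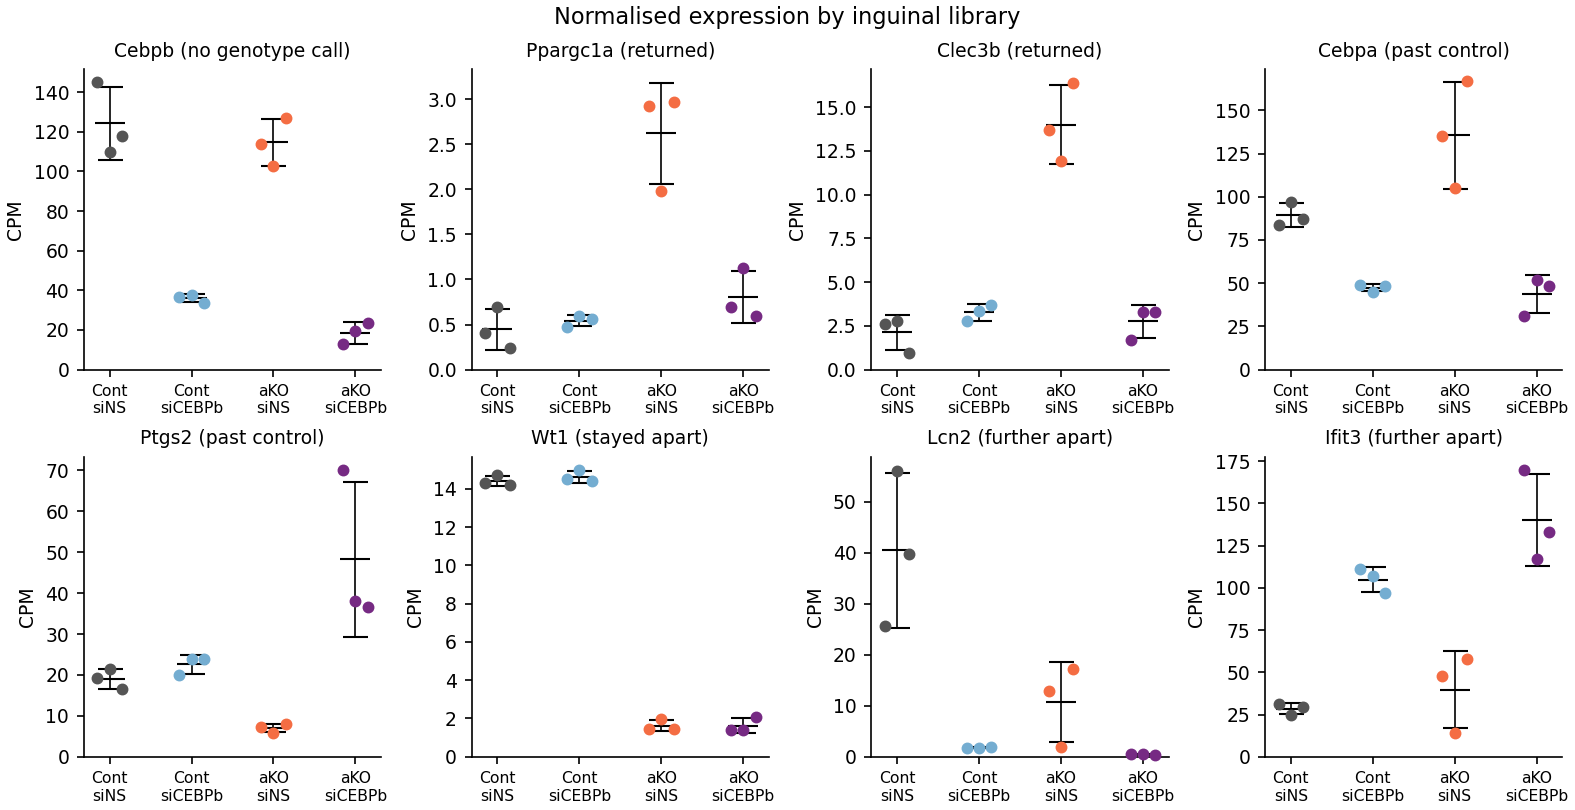
CPM of 8 genes in each iWAT library (points), with group means and SD (n = 3) and a y axis per gene that starts at 0. Ppargc1a and Clec3b are high in aKO siNS and overlap the control values in aKO siCEBPb. Cebpa and Ptgs2 cross the control, Wt1 is low in both aKO groups, Lcn2 is lowest and Ifit3 highest in aKO siCEBPb.

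Of 40 tested genes of adipocyte identity and lipid storage, 9 rose and 0 fell between genotypes (median 0.396), and 7 rose and 17 fell in the combined comparison (median -0.441; background 17.1% higher and 19.5% lower, median over all genes 0.00564). Of 24 genes of fatty acid and triglyceride synthesis 1 rose and 15 fell (median -0.585). The knockdown in Cont cultures raised 4 and lowered 13 of the first list, and lowered 15 of the second. Without aKO siCEBPb replicate 1 the falls in the combined comparison were 12 and 10. Lpl, the lipoprotein lipase, was at 1310, 1710 and 1470 CPM in Cont siNS and 349, 611 and 583 in aKO siCEBPb, and Dgat2, the last enzyme of triglyceride synthesis, at 98.6, 130 and 118 against 14.9, 25.0 and 30.8. Both combined-loss groups were below every control library, by -1.54 (SE 0.25) and -2.30 (SE 0.26). Fabp4, the fatty acid carrier of adipocytes, was at 406, 592 and 525 CPM against 188, 350 and 355, a difference of -0.77 (SE 0.27, adjusted p = 0.0324) that was lost with its groups alone, when a fold over 1.2 was required, and without Cont siNS replicate 2 or 3 or aKO siCEBPb replicate 1 (adjusted p = 0.0793 to 0.149). Adipoq, which drives the Cre of the knockout, was at 65.8, 94.9 and 87.9 CPM in Cont siNS and 71.6, 136 and 133 in aKO siCEBPb, groups that overlapped, with a difference of 0.46 (SE 0.29, adjusted p = 0.238). The lists below hold the genes that passed the filter on low counts, which a gene could pass through 1 group alone: 21 of 34 listed leukocyte genes, 11 of 17 mesothelial, 17 of 21 endothelial and 26 of 37 brown and beige genes did. The knockdown in Cont cultures is set beside the combined comparison by its own values, as both use the Cont siNS libraries. Fewer adipocytes and less of each transcript per adipocyte cannot be told apart in bulk cultures, and the same holds for every cell type below.

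Of 26 brown and beige fat genes 6 rose and 10 fell (median -0.119), where 5 rose and 1 fell between genotypes. In Cont cultures the knockdown raised 3 and lowered 9 (median -0.227). Between the knockdown groups 2 were higher and 1 lower in aKO (median -0.011). Of 28 genes of fatty acid oxidation 1 rose and 7 fell, and of 75 nuclear genes of the respiratory chain 1 rose and 2 fell. For the knockdown in Cont cultures these counts were 2 and 4, and 1 and 2. Cholesterol synthesis took another course: of 26 genes 15 rose and 0 fell between genotypes (median 0.308), and 14 rose and 1 fell in the combined comparison (median 0.262), with 6 returned and 6 that stayed apart (3.38% and 5.3% of all tested genes). Mvk, mevalonate kinase, was at 33.5, 31.2 and 36.8 CPM in Cont siNS, 48.1, 33.6 and 51.8 in aKO siNS, and 54.7, 51.8 and 52.8 in aKO siCEBPb, 1.57-fold above control (0.65, SE 0.08) with no overlap. Lss, lanosterol synthase, returned: 74.5, 64.3 and 77.7 CPM in Cont siNS, 100, 140 and 109 in aKO siNS, and 87.2, 69.1 and 75.1 in aKO siCEBPb, which overlapped control at 0.10 (SE 0.09). The genotype and knockdown calls of Lss were lost in fits of their 2 groups alone. Under knockdown 13 of the 26 were higher in aKO than in Cont cultures, and 0 were lower, against 3.52% of all genes called higher.

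Cell division genes stayed below Cont siNS. All 30 tested genes of mitosis fell between genotypes (median -0.614) and all 30 in the combined comparison (median -0.676), of which 27 stayed apart (5.3% of all tested genes). In Cont cultures the knockdown lowered 26 of them. Between the knockdown groups 6 of the 30 were lower in aKO and 0 higher (median -0.252), against 6.51% of all genes called lower. Top2a, the topoisomerase of dividing cells, was at 143, 149 and 133 CPM in Cont siNS, 91.5, 77.1 and 87.2 in aKO siNS, 95.8, 93.2 and 93.9 in Cont siCEBPb, and 87.0, 77.9 and 73.8 in aKO siCEBPb. The control group stood above all the others. The combined difference of -0.83 (SE 0.08) was smaller than the sum of the genotype and knockdown differences, and the interaction was 0.44 (SE 0.12, adjusted p = 0.0287). Of 29 DNA replication genes 1 rose and 20 fell in the combined comparison (median -0.564). The knockdown in Cont cultures raised 1 and lowered 21 of them (median -0.372), and between genotypes 0 rose and 17 fell.

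Glycolysis went further down. Of 23 genes 17 fell and 1 rose between genotypes (median -0.466), and 19 fell and 0 rose with both (median -0.789), of which 10 went further apart and 7 stayed apart (2.98% and 5.3% of all tested genes). In Cont cultures the knockdown lowered 19 and raised 0. Between the knockdown groups 8 of the 23 were lower in aKO and 0 higher (median -0.271), against 6.51% of all genes called lower. Slc2a1, the basal glucose transporter, was at 202, 216 and 219 CPM in Cont siNS, 120, 121 and 122 in aKO siNS, 117, 124 and 121 in Cont siCEBPb, and 104, 93.4 and 99.7 in aKO siCEBPb. Either change alone brought it to about the same level and both together to the lowest, by -1.10 (SE 0.07), with an interaction of 0.52 (SE 0.10, adjusted p = 0.00209). The further fall of Slc2a1 in aKO cultures was not called with no filter or in its 2 groups alone.

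The median of genes of amino acid synthesis and other targets of ATF4, which acts in the integrated stress response, crossed the control. Of 32 tested, 15 fell and 1 rose between genotypes (median -0.245), and 19 rose and 5 fell with both (median 0.507). Of the 32, 9 went past control (1.71% of all tested genes), and in Cont cultures the knockdown raised 21. Between the knockdown groups 1 was higher and 7 were lower in aKO (median -0.0153), against 3.52% and 6.51% of all genes. Cth, which makes cysteine, was at 12.9, 11 and 11.2 CPM in Cont siNS, 7.06, 0.0 and 7.0 in aKO siNS, and 30.8, 27.6 and 26.4 in aKO siCEBPb. It moved from below every control library to above every one, at 1.26 (SE 0.12, adjusted p = 9.65e-10). Its genotype call was lost in a fit of its 2 groups alone. Slc7a5, a large neutral amino acid transporter, was at 95.2, 94.2 and 91.1 CPM in Cont siNS and 306, 278 and 241 in aKO siCEBPb, 2.94-fold higher. Atf4 itself returned, at 204, 205 and 198 CPM in Cont siNS, 162, 115 and 186 in aKO siNS, and 220, 215 and 217 in aKO siCEBPb. It lay above every control library, but the difference of 0.11 (SE 0.08, adjusted p = 0.332) was not called. The genotype call of Atf4 was lost with no filter, with iWAT libraries alone, with its 2 groups alone and without Cont siNS replicate 2 or aKO siNS replicate 1 (adjusted p = 0.051 to 0.349), and its knockdown call in aKO cultures with 2 groups alone (0.128).

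Acute phase and innate immune genes fell and interferon-response genes rose. Of 30 acute phase genes 14 fell and 1 rose between genotypes, and 26 fell and 2 rose with both (median -1.86), where the knockdown in Cont cultures lowered 25 and raised 1. Lcn2 (ENSMUSG00000026822, chr2:32384633-32388252), which encodes the iron-siderophore binder lipocalin 2, was at 25.7, 56.1 and 39.7 CPM in Cont siNS, 12.9, 1.98 and 17.3 in aKO siNS, and 0.459, 0.564 and 0.253 in aKO siCEBPb. The combined-loss libraries were below all others, 90.6-fold lower than control (-6.50, SE 0.50, adjusted p = 4.43e-09) on 17 counts. The Cont siCEBPb libraries, at 1.81, 1.63 and 1.85 CPM, were low too. Serpina3n, a secreted protease inhibitor, was at 477, 647 and 526 CPM in Cont siNS and 45.8, 63.4 and 67.4 in aKO siCEBPb, level with the 58.1, 57.3 and 59.0 of Cont siCEBPb. Saa3, the serum amyloid A of fat and macrophages, was at 76.8, 82.8 and 82.9 CPM in Cont siNS, 23.2, 17.8 and 28.1 in aKO siNS, 43.3, 38.9 and 46.7 in Cont siCEBPb, and 2.99, 9.23 and 9.26 in aKO siCEBPb. No groups overlapped, and each change alone gave an intermediate level. The combined difference was -3.49 (SE 0.25). Of 20 genes of NF-kB subunits and feedback targets 1 rose and 16 fell (median -0.575). The knockdown in Cont cultures raised 1 and lowered 12 of them (median -0.505), and between genotypes 1 rose and 0 fell. Of 36 complement and coagulation genes 3 rose and 27 fell (median -1.43), against 3 and 25 for the knockdown in Cont cultures. C7, a complement component, was at 21.1, 24.7 and 18.4 CPM in Cont siNS and 0.306, 0.775 and 0.674 in aKO siCEBPb, and the knockdown lowered it by more in aKO than in Cont cultures (interaction -1.81, SE 0.36, adjusted p = 0.00301).

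Of 33 interferon-response genes 1 rose and 0 fell between genotypes, and 25 rose and 0 fell with both (median 0.920), 24 of them without a genotype call. The knockdown in Cont cultures raised 27. Ifit3, an antiviral effector, was at 31.5, 24.8 and 29.2 CPM in Cont siNS, 48.0, 13.8 and 57.7 in aKO siNS, 111, 107 and 96.7 in Cont siCEBPb, and 170, 117 and 133 in aKO siCEBPb. Both knockdown groups were above every library with siNS, and the shallow library was the lowest of all. The combined difference was 2.29 (SE 0.19, adjusted p = 8.54e-09), and that between the knockdown groups 0.42 (SE 0.17, adjusted p = 0.146). Its genotype call was lost in a fit of its 2 groups alone and without Cont siNS replicate 2 or aKO siNS replicate 3 (adjusted p = 0.0553 to 0.152). Isg15, a ubiquitin-like modifier, went from 22.9, 10.1 and 17.8 CPM to 92.1, 55.3 and 59.5, a difference of 2.01 (SE 0.28, adjusted p = 1.41e-05). Saa3 and Isg15 fall outside the rule by which genes were named and were chosen after their values were seen.

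The promoters of 5 of these genes are shown because they hold, or lack, short motifs known for the 2 factor families that these groups are named after. The windows run 250 bases before to 50 bases after the start of the gene in RefSeq (GRCm38.p6), 5′ to 3′ on the gene's strand. Capitals mark matches on either strand to TTGCNNAA, a core bound by C/EBP factors, or to GAAANNGAAA, an interferon-response element.
Lcn2, chr2:32387690-32387989, minus strand: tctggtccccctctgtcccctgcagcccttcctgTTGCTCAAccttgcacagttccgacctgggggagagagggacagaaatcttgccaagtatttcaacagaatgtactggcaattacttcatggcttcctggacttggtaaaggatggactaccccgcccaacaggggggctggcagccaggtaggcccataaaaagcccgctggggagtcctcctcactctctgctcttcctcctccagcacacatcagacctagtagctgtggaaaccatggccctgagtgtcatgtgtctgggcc
Saa3, chr7:46715627-46715926, minus strand: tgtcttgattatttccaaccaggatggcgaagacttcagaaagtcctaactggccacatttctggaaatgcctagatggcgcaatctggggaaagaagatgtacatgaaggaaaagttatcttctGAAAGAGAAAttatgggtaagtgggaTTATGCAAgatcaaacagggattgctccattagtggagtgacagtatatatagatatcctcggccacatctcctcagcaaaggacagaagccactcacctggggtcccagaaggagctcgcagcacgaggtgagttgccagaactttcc
Ptgs2, chr1:150099781-150100080, plus strand: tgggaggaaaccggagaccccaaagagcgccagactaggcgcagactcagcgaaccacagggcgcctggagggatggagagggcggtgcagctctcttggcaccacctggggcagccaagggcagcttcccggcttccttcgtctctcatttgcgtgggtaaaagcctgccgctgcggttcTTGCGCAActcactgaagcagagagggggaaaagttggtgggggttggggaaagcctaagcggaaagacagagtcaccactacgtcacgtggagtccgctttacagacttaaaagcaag
Ifit3, chr19:34583279-34583578, plus strand: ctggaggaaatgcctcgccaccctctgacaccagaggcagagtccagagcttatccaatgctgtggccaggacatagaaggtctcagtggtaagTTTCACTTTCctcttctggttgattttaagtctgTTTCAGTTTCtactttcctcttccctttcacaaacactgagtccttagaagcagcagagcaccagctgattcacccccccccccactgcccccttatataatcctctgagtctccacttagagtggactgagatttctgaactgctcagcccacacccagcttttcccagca
Isg15, chr4:156200769-156201068, minus strand: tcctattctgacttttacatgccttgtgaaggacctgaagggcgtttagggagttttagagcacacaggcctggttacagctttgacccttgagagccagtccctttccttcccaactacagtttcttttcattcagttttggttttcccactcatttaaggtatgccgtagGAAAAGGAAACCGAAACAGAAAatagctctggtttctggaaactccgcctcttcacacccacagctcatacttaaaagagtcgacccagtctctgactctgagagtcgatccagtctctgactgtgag
Lcn2 holds the C/EBP core 216 to 209 bases before the start, and its RefSeq start is 513 bases from the outer end of the GENCODE gene. Ptgs2 holds it 69 to 62 bases before the start. Saa3 holds the core 99 to 92 bases and the interferon element 125 to 116 bases before the start. Ifit3 holds the interferon element at 156 to 147 and at 122 to 113 bases, and Isg15 holds 3 overlapping matches that begin 78, 72 and 66 bases before the start. Lcn2 and Saa3 were thus low and Ptgs2 high in aKO siCEBPb with the same core in the window.

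A window was found for 9794 of the 14785 tested genes. The C/EBP core was in 8.29% of those windows, in 10.8% of all 32851 windows of the table, and in 11 of 22 windows of the acute phase list (50%). It was in 32 of the 246 windows of genes that went further apart on the low side (13%), in 2 of the 67 on the high side (2.99%), in 25 of the 214 of genes that returned from above (11.7%) and in 0 of 26 of the mitosis list. The interferon element was in 3.2% of the windows of tested genes, 3.44% of all windows and 14 of 23 of the interferon list (60.9%). A match describes the letters of the window and is not evidence of binding.

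**Figure D3:**
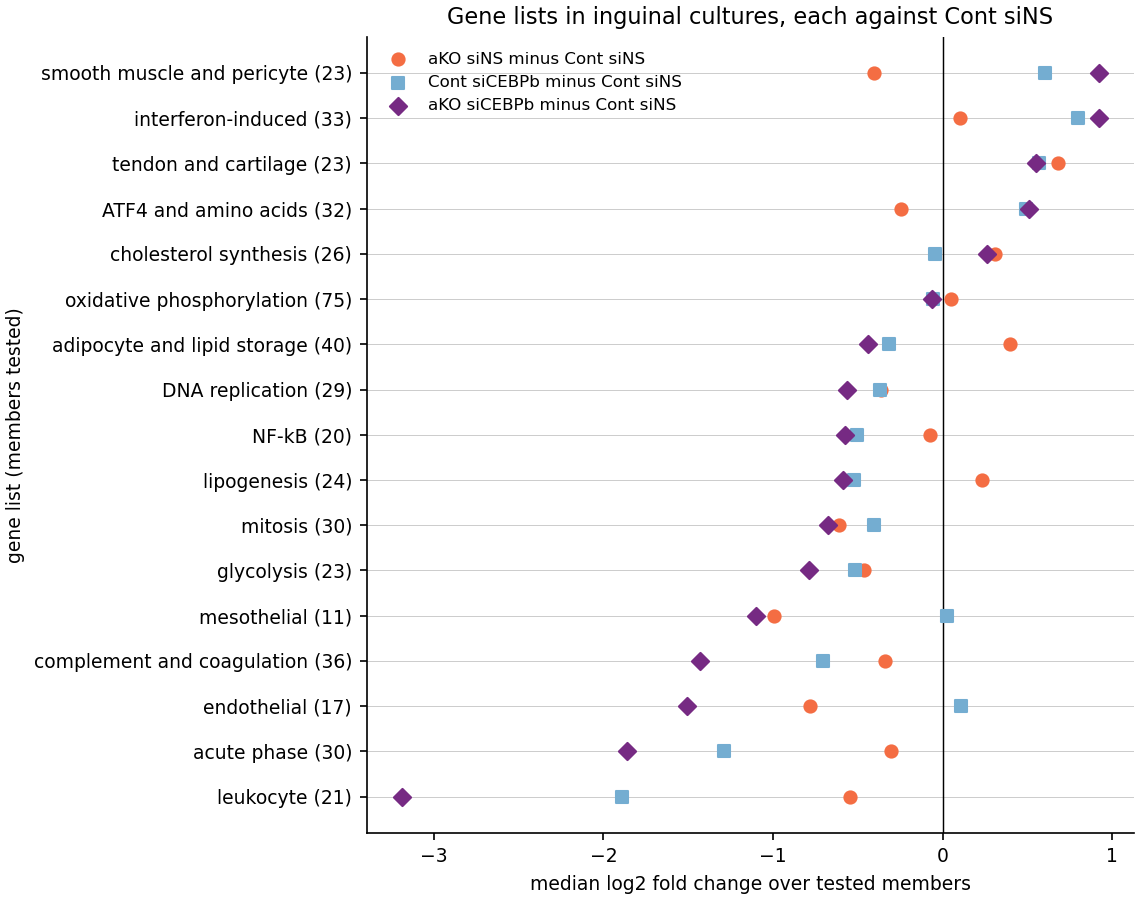
Median log2 fold change of 17 gene lists in iWAT for the genotype comparison, the knockdown in Cont cultures and the combined comparison, which share the Cont siNS libraries. Mitosis genes lie below 0 in all 3, interferon genes near 0 between genotypes and at 0.920 with both, and ATF4 targets at -0.245 between genotypes and 0.507 with both.

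Genes of other cell types moved as well. The summed CPM of 8 adipocyte markers was 2140 to 2910 in Cont siNS and 3060 to 3980 in aKO siNS, where the shallow library was the highest. It was 1220 to 1610 in Cont siCEBPb and 776 to 1430 in aKO siCEBPb. The combined-loss libraries were thus below all Cont siNS libraries but overlapped those of Cont siCEBPb. The leukocyte marker sum was 389 to 552 CPM in Cont siNS, 247 to 389 in aKO siNS, 131 to 143 in Cont siCEBPb and 36.1 to 66.6 in aKO siCEBPb. Cd3e, a marker of T cells, was at 0 in every iWAT group. Of 21 tested leukocyte genes 18 fell and 0 rose (median -3.19), and the knockdown in Cont cultures lowered 18 too. Lyz2, the lysozyme of macrophages and neutrophils, was at 1560, 1420 and 1140 CPM in Cont siNS and 27.5, 46 and 77.0 in aKO siCEBPb, and Cd163, a macrophage scavenger receptor, at 9.21, 9.01 and 8.42 against 0.0, 0.0705 and 0.253. Both were well under every control library, by -4.78 (SE 0.36) and -6.31 (SE 0.38). Several acute phase, complement and chemokine genes above are also expressed by macrophages, and the part of this fall in those results was not tested.

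The median of smooth muscle and pericyte genes crossed the control in the other direction. Of 23 tested, 9 fell and 2 rose between genotypes (median -0.405), and 16 rose and 3 fell with both (median 0.921). Of the 23, 8 went past control (1.71% of all tested genes). In Cont cultures the knockdown raised 15 and lowered 2. The marker sum was 989 to 1270 CPM in Cont siNS, 459 to 958 in aKO siNS, 2090 to 2270 in Cont siCEBPb and 2600 to 3360 in aKO siCEBPb. Myl9, a regulatory light chain of smooth muscle myosin, was at 147, 141 and 172 CPM in Cont siNS, 122, 73.2 and 108 in aKO siNS, and 438, 349 and 335 in aKO siCEBPb, and Myh11, the heavy chain, was at 41.5, 37.9 and 42.0, then 26.6, 25.7 and 25.3, and then 186, 128 and 132. Both went from below every control library to above every one, by 1.29 (SE 0.11) and 1.88 (SE 0.14). The genotype call of Myl9 was lost in a fit of its 2 groups alone and that of Myh11 without aKO siNS replicate 1 or 3. The 3 that fell were Des, given above, and Cspg4 and Abcc9, named after their values were seen; Abcc9 is 1 of the 8 past control.

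Mesothelial genes stayed apart: of 11 tested, 7 fell and 0 rose with both (median -1.10). Of these, 6 were in the class that stayed apart (5.3% of all tested genes). The marker sum was 24.4 to 25.6 CPM in Cont siNS, 3.96 to 6.71 in aKO siNS, 22.9 to 28.5 in Cont siCEBPb and 6.57 to 6.98 in aKO siCEBPb. It was thus low in both aKO groups and overlapped between the Cont groups. The 11 tested genes summed to 70.4 to 77.5 CPM in Cont siNS, 27.7 to 37.4 in aKO siNS and 28.0 to 38.8 in aKO siCEBPb. Their sum in Cont siCEBPb, 51.6 to 59.5, was below every Cont siNS library. In Cont cultures the knockdown raised 4 and lowered 3 of the 11. Wt1 is on that list, and the part of the other mesothelial transcripts in its result was not tested. Of 17 endothelial genes 4 rose and 11 fell. Cdh5, the cadherin of endothelial junctions, was at 5.43, 6.04 and 3.25 CPM in Cont siNS and 0.919, 1.9 and 0.926 in aKO siCEBPb, which did not overlap, at -1.96 (SE 0.27), while the endothelial marker sum was 28.0 to 30.0 against 29.5 to 34.1. Fibroblast and progenitor markers summed to 30800 to 33200 CPM in Cont siNS and 21700 to 24600 in aKO siCEBPb, whereas the longer list of 38 fibroblast and progenitor genes summed to 34400 to 36500 and 44300 to 45500, with 12 higher and 12 lower. Epithelial markers summed to at most 0.306 CPM.

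**Figure D4:**
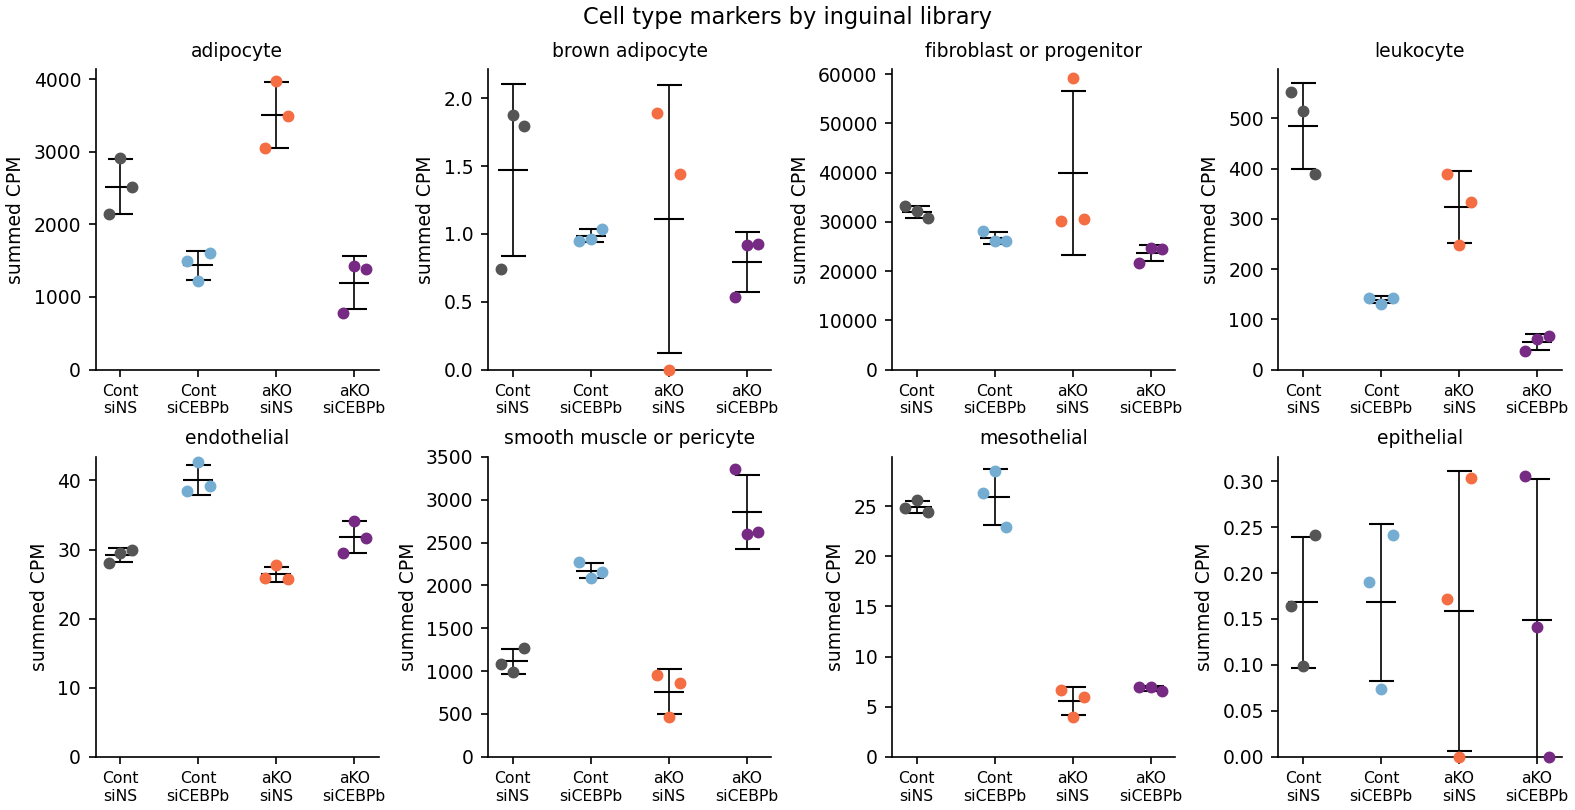
Summed CPM of 8 sets of cell type markers per iWAT library (points), with mean and SD (n = 3) and axes from 0. In aKO siCEBPb the adipocyte (776 to 1430) and leukocyte (36.1 to 66.6) sums are below those of Cont siNS and the smooth muscle sum (2600 to 3360) is above all other groups; the mesothelial sum is low in both aKO groups.

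The placement could be compared with eWAT cultures, which share no library with iWAT and in which the genotype comparison called 20.4% of genes, the combined comparison 39.3% and the knockdown in aKO 35.7%. Of the 318 iWAT genes that returned from above, 197 returned from above in eWAT too (61.9% of the iWAT set and 53.0% of the 372 in eWAT, a class of 2.52% of all tested genes), and of the 182 that returned from below 106 did (58.2%, and 37.3% of 284, or 1.92%). Of 425 iWAT genes that stayed low 275 stayed low in eWAT (64.7%, and 52.6% of 523, or 3.54%), and of 338 that went further down 286 did (84.6%, and 61.1% of 468, or 3.17%). Wt1 had combined differences of -3.15 in iWAT and -3.39 in eWAT, Lcn2 -6.50 and -6.81, Ifit3 2.29 and 2.29, and Ptgs2 1.33 and 1.06. Ppargc1a, at 0.82 in iWAT, was at 0.16 in eWAT.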

How the data were processed

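Poly(A) RNA of 24 libraries was sequenced after a directional (strand-marking) library kit, per the labels. The submitters' processing notes name cutadapt 2.7, TopHat2 2.1.1, HTSeq, edgeR and the build GRCm38. Whether counting used strand is not stated, so a gene and its antisense partner cannot be told apart. The deposited table held the authors' raw read count for each of 53465 genes, 53360 of which GENCODE M21 named. It also held 5 counter lines (27.5% to 39.5% of reads, but 95.9% for the shallow iWAT aKO siNS replicate 2), which were left out. The deposited per-sample files of scaled values were not used.

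Counts were fitted with edgeR 4.0.16 (R 4.3.3; filterByExpr with a minimum count of 10, TMM scaling, robust quasi-likelihood fit) with 8 group means over all 24 libraries, and p-values were adjusted by Benjamini-Hochberg over 14785 genes. CPM used TMM library sizes. Alternatives were DESeq2 1.42.0, limma 3.58.1 voom, other scalings, filters, thresholds and samples, the replicate number as a block, and each library left out. Tested on simulated counts for the combined comparison (14525 genes), the fit recovered 17 of 67 genes changed 1.5-fold, 53 of 67 changed 2-fold and 66 of 66 changed 4-fold, with 10 false calls among 146. The simulation gave every gene and library the same spread. Changed genes were drawn only from those above an expression floor, and all other genes had equal means in all groups. These rates check the fit and are not the rates of the real data.

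The genes and lists described were chosen with earlier results of these data known. Named genes were a fixed set, the 10 with the widest difference in each class and direction whose libraries did not overlap, and of each list the 5 with the smallest combined p and the 3 most expressed that were not called. Predicted genes and genes with a mean log2 CPM under 1 were passed over in the classes, and not all genes allowed are given. Same-numbered libraries of Cont siNS and aKO siCEBPb did not deviate together (r = -0.0221, 0.194 and -0.259 over 8159 genes), so the numbers were not taken as pairs.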

Additional observations from a re-analysis of the deposited data

Results flagged for a closer look

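The response to siCEBPb differed between genotypes in iWAT by edgeR's interaction test for 519 genes. Of these, 28 are named here with the knockdown effect in aKO minus that in Cont cultures (log2). Among genes placed as returned the value was -2.08 for Ppargc1a, -3.0 for Clec3b, -2.24 for Ntrk2, -1.57 for Gldc and -2.43 for Egfl6. It was -1.71 for Ramp2 (a receptor activity modifier) and -0.79 for Fzd4, and all of these were high in aKO siNS. Among those that returned from below it was 1.31 for Cadm4 and 1.00 for Ptgs1.

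Among genes that went part way it was -1.36 for Apod, -1.15 for Clec14a, -1.41 for Fgfr2 and 1.10 for Enpp1, an ectoenzyme that makes pyrophosphate. Past control it was -1.23 for Agt, -3.80 for Cyp2e1, -3.31 for Aox3, -1.31 for Ppargc1b, 2.43 for Ptgs2, 2.27 for Ankrd1, 1.07 for Nrg1, 0.66 for Cth and 0.84 for Myl9. Among genes that stayed or went further apart it was 0.44 for Top2a, 0.52 for Slc2a1, 0.93 for Adcyap1r1, -1.31 for Col8a2, -1.98 for Scg2 and -1.81 for C7. The count of 519 ranged from 291 to 939 with single libraries left out, and the values rest in part on the shallow aKO siNS library. The classes were set with the same libraries, so for genes that moved back the sign follows largely from the class.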

How the results depend on the processing

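Of 225 differences of named genes, 183 kept their direction and side of the threshold in each alternative run for them (13 to 16 of the 18, as not all apply to each comparison; 3194 of 3294 values), and none changed direction past the threshold. The combined count of 5418 fell to 3083 when a fold over 1.2 was required. With only the groups of a contrast fitted, the genotype called 718 genes and the knockdown in aKO 2231. With limma voom the genotype under knockdown called 2551, the interaction 1204, and 128 genes went part way and 686 further apart. The interaction called 921 with no filter and 303 with iWAT libraries alone, where 47 went part way and 165 past control. At a threshold of 0.01, 300 returned, 30 went part way, 110 past control, 511 stayed apart and 229 went further apart, and at 0.1, 114 went part way. Leaving out single libraries gave ranges of 4527 to 6186 for the combined comparison, 1436 to 2752 for genotype, 3611 to 5199 for the knockdown in aKO, 2822 to 4360 for that in Cont, 942 to 1972 for genotype under knockdown, 291 to 939 for the interaction, 333 to 599 returned, 47 to 101 part way, 148 to 339 past control, 589 to 946 stayed apart, 214 to 560 further apart, 105 to 345 undecided and 3198 to 4371 with a combined but no genotype call. The cause of these moves was not tested, though fewer samples and stricter thresholds lower counts by construction. With the replicate number as a block, a pairing the data did not bear out, the combined comparison called 5398 genes, genotype 2316, the knockdown in aKO 4620 and in Cont 3626, genotype under knockdown 1522 and the interaction 600, with 522 returned and 793 stayed apart. Ribosomal protein genes, 0 of 46 called with both, had 32 lower without the shallow library. Leaving out Cont siCEBPb libraries, and the list and eWAT-chosen values without single libraries, were chosen after seeing the data. Depth limits the genes under about 20 counts per group, such as Lcn2, F13a1 and Cd163 after knockdown.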

Other observations

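Signalling lists moved in both directions; over all genes 17.1% rose and 19.5% fell in the combined comparison and 3.38% were placed as returned. Of 41 Wnt genes 14 rose and 11 fell in the combined comparison (13 and 6 between genotypes), with 7 returned. Wnt4, a secreted ligand, went further down, at 23.6, 28.3 and 19.7 CPM in Cont siNS, 9.12, 13.8 and 12.2 in aKO siNS and 3.52, 3.45 and 3.96 in aKO siCEBPb, with no overlap between groups (-2.72, SE 0.16, adjusted p = 2.17e-13). The receptor gene Fzd5 went further up, at 53.5, 40.8 and 50.5 CPM, then 72.5, 77.1 and 66.4, and then 148, 141 and 137 (1.56, SE 0.08). Of 46 TGF-beta and BMP genes 12 rose and 13 fell, with 9 returned. Tgfb3, a ligand of that family, rose from 87.9, 69.9 and 85.5 CPM to 346, 318 and 314, 4.02-fold, while Cont siCEBPb cultures held 238, 240 and 230.

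Of 39 genes that pattern fat depots 17 rose and 9 fell, with 11 that stayed apart (5.3% of all tested genes), and of 23 tendon and cartilage genes 13 rose and 2 fell (median 0.553). Of 37 genes of steroid and retinoid metabolism 4 rose and 21 fell. The knockdown in Cont cultures raised 13 and lowered 2 of the depot genes. For the tendon and cartilage genes these counts were 10 and 3, and for the steroid and retinoid genes 6 and 12. Of 18 genes of the SUMO pathway 6 rose and 2 fell with both, and 0 were called between genotypes by edgeR.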
